A study of Mus musculus with 12 samples.

Results

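The nuclear-encoded genes of oxidative phosphorylation were followed in chimeric AGO2 eCLIP libraries of mouse tibialis anterior muscle. The list of 51 genes held subunits of complexes I to V and cytochrome c, and every listed peak that overlapped one of them by at least 1 nt on the same strand was taken, with no threshold. All 51 were found among the 21937 protein-coding genes of the annotation, and they carried 2555 of the 713343 peaks in the 4 lists of library over input. The genes were grouped by name as 17 of complex I, 4 of complex II, 6 of complex III, 10 of complex IV and 13 of complex V, beside cytochrome c (Cycs). Ndufa4 was thus counted in complex I, although its protein is a subunit of complex IV. The assay recovers RNA that ultraviolet light has linked to AGO2, the protein that carries microRNAs, and sequences a size-matched input beside it. The muscle came from male mice at 6 months of age, and there were 2 library sets. Set 1 and set 2 each held a total immunoprecipitated library of 1 wild-type (WT) and 1 mir-486 KO sample, and the input of each. The WT samples were labelled C57BL/6 and the mir-486 KO samples (miR-486-/-) FVB N/J, so genotype and labelled strain cannot be told apart. The study's methods describe instead a common C57BL/6J background and a CRISPR deletion in the hairpin that lies within an intron of Ank1. The methods count several muscle samples of each genotype, run in duplicate, but the sources used here do not say which of them, alone or pooled, went into each library. Libraries further enriched for miR-486 were not analysed here.

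Oxidative phosphorylation passes electrons from NADH through complex I, or from succinate through complex II, to complex III, cytochrome c and complex IV, and the proton gradient built on the way drives ATP synthesis by complex V. Most subunits are encoded in the nucleus and imported into the mitochondrion, and skeletal muscle holds large amounts of their mRNAs. AGO2 loaded with a microRNA binds target mRNAs by pairing of the microRNA seed (bases 2 to 8), best known in 3′ UTRs but also found in coding sequence (CDS).

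The sites with the highest fold over input lay mostly in CDS. The following 30-nt windows come from the middle of such peaks, read 5′ to 3′ on the transcript strand from GRCm38.p6, with capitals for a match to 1 of the microRNA seeds searched. The first 6 lie in the highest enriched peak of the gene named, and the last lies in the peak with the highest direct difference between genotypes.
Atp5b, chr10:128089109-128089138 (+): gctggtgcccttgaaggagaccattaaagg
Atp5h, chr11:115416032-115416061 (-): agtttgtgtctggatcccagctcaggatcc
Uqcrc1, chr9:108944803-108944832 (+): aacgtggtctttgattacctgcatgcgaca
Cox6a2, chr7:128206265-128206294 (-): tggctctgcctctaaaggtcCTGAGCCgga
Ndufb5, chr3:32737165-32737194 (+): agtcggaagttttctcacgcggagctttcc
Sdhc, chr1:171136108-171136137 (-): gtcggcactgctgcttcctgggaactttga
Ndufa9, chr6:126832495-126832524 (-): gttaatgcgactaaggatccagatgccgta
In these windows a seed match was found in Cox6a2, to miR-24-3p.

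The libraries differed in ways that touch every value below. They listed between 92451 and 256219 peaks, with the smaller lists in set 1. The lists hold no read counts, so their depth is unknown. The mir-486 locus carried 2 and 4 enriched peaks in the WT libraries of sets 1 and 2 and 0 in both mir-486 KO libraries, which goes with the labels. All 10 skeletal muscle markers and all 5 fast fibre markers carried peaks in every library. The 6 slow fibre markers carried 106 and 90 peaks in WT and mir-486 KO of set 1 but 15 and 16 in set 2. Of 6 heart muscle markers 2 carried a peak in each library, and of 6 fat cell markers 3 or 4. No test between genotypes was made, because 2 libraries against 2 allow no two-sided exact permutation p under 0.333. The values below are descriptions, set beside those of all genes.

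Peaks on these genes stood out in 1 library, WT of set 1. A peak is called enriched where its log2 fold over input and its −log10 p were both at least 3. In WT of set 1 there were 84 enriched peaks among 452, on 28 of 51 genes (54.9%), against 15.3% of all genes with a peak. In mir-486 KO of set 1 none of 488 peaks was enriched, which allows a share of peaks of up to 0.615%. As genes, that was 0 of 51, which allows up to 5.88%, against 4.52% of all genes. In WT of set 2 there were 5 among 815, on 2 genes (3.92%), against 13.2% of all genes, and in mir-486 KO of set 2 there were 11 among 800, on 5 of 50 genes, against 12.4%. These genes carried more peaks than most (a median of 7 to 13 a gene, beside 5 to 10). Of the genes with at least 5 peaks, 23.9%, 6.99%, 16.3% and 15.4% had an enriched one in WT and mir-486 KO of set 1 and then of set 2. The share of genes with an enriched peak lay above the background in WT of set 1 and below it in WT of set 2. The mir-486 KO libraries held 0 and 5 such genes. Peaks of the same gene that touch or overlap were often listed in pieces, and counted as sites they came to 57, 0, 3 and 7 in the same order.

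CDS peaks gave the same order of libraries. Of the CDS peaks of these genes, 18.9% (95% Wilson interval 15.3% to 23.2%, n = 380) were enriched in WT of set 1, beside 3.17% of all CDS peaks. In mir-486 KO of set 1 the count was 0 of 379, which allows up to 0.792%, beside 0.264% of all CDS peaks. In set 2 it was 0.741% (0.317% to 1.72%, n = 675) in WT, beside 1.03%, and 1.37% (0.723% to 2.59%, n = 656) in mir-486 KO, beside 0.946%. These intervals cover counting error only, and neighbouring peaks are not independent. In the other 3 libraries the interval held the share of all CDS peaks.

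The whole set of genes, not a few of them, lay high in that library. Each gene was given the median log2 fold over input of its peaks. The median over the genes was 1.64 in WT of set 1, where the genes ranged from -1.13 to 4.59 and 50 of 51 lay above 0. It was -0.10 in mir-486 KO of set 1 (-1.37 to 1.46, 21 above 0), 0.21 in WT of set 2 (-1.53 to 1.57, 30 above 0) and 0.23 in mir-486 KO of set 2 (-1.23 to 2.95, 31 of 50 above 0). Over all genes the corresponding medians were 0.68, 0.38, 0.61 and 0.56. The mean over sets was 0.93 ± 1.01 (SD, n = 2) for WT and 0.06 ± 0.24 (SD, n = 2) for mir-486 KO.

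**Figure D1:**
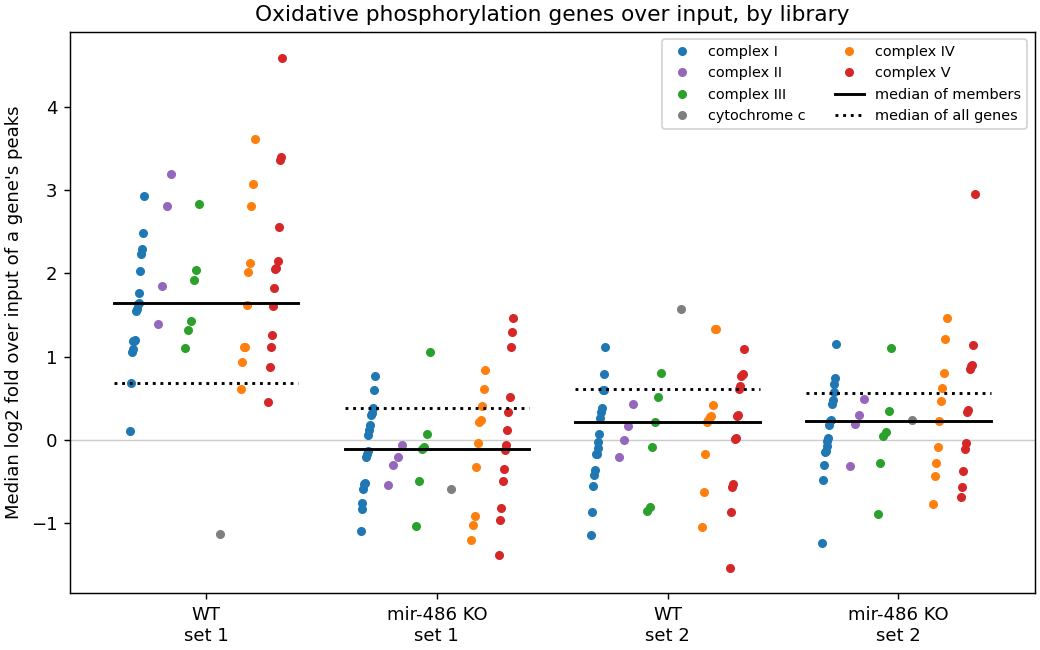
Median log2 fold over input of each gene's listed peaks (y axis) in the 4 libraries (x axis), 1 point per gene, with the complexes in colour. Solid lines are the medians of the 51 genes (1.64, -0.10, 0.21 and 0.23 from left to right; 50 genes in the last), dotted lines those of all genes with a peak; only in WT of set 1 does the solid line lie above the dotted one.

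The order of the genes was alike between libraries even where the level was not. Across genes, the Spearman correlation of these medians was 0.82 between the mir-486 KO libraries (n = 50), 0.57 between the WT libraries (n = 51), 0.63 between WT and mir-486 KO of set 1 and 0.87 between WT and mir-486 KO of set 2. Genes are not independent replicates, and the libraries share sequence and gene length, so these values are a description. Thus Cox4i1, a subunit of complex IV, was among the low ones in the mir-486 KO libraries and in WT of set 2. Its medians were -0.91, -1.04 and -0.77 in mir-486 KO of set 1, WT of set 2 and mir-486 KO of set 2. In WT of set 1 it lay at 0.94. Uqcrc1, a core protein of complex III, was among the high ones (2.84, 1.06, 0.80 and 1.10 in WT and mir-486 KO of set 1 and then of set 2).

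The direct comparison of the immunoprecipitated libraries gave a smaller difference in set 1 than the folds over input did. For each gene the median fold over input in mir-486 KO was subtracted from that in WT, and the median direct log2 fold of WT over mir-486 KO was then taken off. In set 1 the difference over input had a median of 2.01 over the 51 genes, the direct fold 0.79, and the remainder 1.10, with 48 of 51 genes above 0. Over the 9963 protein-coding genes with values the remainder was -0.45, and 31.9% lay above 0. From CDS peaks alone the remainder was 1.27 for 47 genes, all above 0, beside -0.18 for 7205 protein-coding genes. In set 2 the remainder was -0.05 over 50 genes from all peaks, beside -0.24 over 12272 protein-coding genes. From CDS peaks it was 0.03 over 49 genes, beside -0.02 over 10232 protein-coding genes. The remainder has the form of a log2 ratio of the mir-486 KO input over the WT input, although the peaks of the libraries do not have the same borders. The input libraries' own part in the result was not tested.

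Of complex I, which takes electrons from NADH, 8 of 17 genes carried 18 enriched peaks in WT of set 1, and 1 gene carried 1 in mir-486 KO of set 2. Ndufa4, counted here by name, held 1 of the 18. Ndufb5, an accessory subunit of the membrane arm, carried 5 enriched peaks of 11 in WT of set 1 and 0 of 9, 0 of 16 and 0 of 15 in mir-486 KO of set 1, WT of set 2 and mir-486 KO of set 2. Its highest site (chr3:32737153-32737206, +, CDS) read 4.84 in WT of set 1, 1.43 in mir-486 KO of set 1, 1.99 in WT of set 2 and 2.32 in mir-486 KO of set 2. Ndufs1, the largest subunit of the peripheral arm, carried 4 enriched peaks of 26 in WT of set 1, with a highest CDS value of 3.81 there. Its other enriched peak was a 5-nt intronic one in mir-486 KO of set 2 (3.63), which read 1.45 in mir-486 KO of set 1 and 1.30 in WT of set 2 and had no overlapping peak in WT of set 1. Ndufb8, also of the membrane arm, had the highest median of the complex in WT of set 1 (2.92) and lay at 0.33, 0.61 and 0.74 in mir-486 KO of set 1, WT of set 2 and mir-486 KO of set 2. The lowest in WT of set 1 was Ndufs6, at 0.11, with medians of -0.17, -1.14 and -1.23 in the other libraries. Each of the 17 genes lay above 0 in WT of set 1, and 8, 8 and 10 did in the other libraries.

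Complex II, succinate dehydrogenase, had 11 enriched peaks on 3 of its 4 genes in WT of set 1 and 0 in the other 3 libraries, where its peaks numbered 56, 88 and 87. Sdhc, a membrane anchor, had 4 enriched peaks of 10 and a median of 3.20 in WT of set 1, against -0.20, 0.43 and 0.49 in mir-486 KO of set 1, WT of set 2 and mir-486 KO of set 2. Its highest site read 4.69 in WT of set 1 and 0.24, 0.64 and 0.81 in the others. Sdha, the flavoprotein, also had 4 enriched peaks, of 24, and a highest value of 4.14. Sdhd, the other membrane anchor, had 3 of 7. The iron-sulfur subunit Sdhb had 14, 13, 18 and 24 peaks with none enriched, and its highest value was 2.68 in WT of set 1.

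Complex III, which hands electrons from ubiquinol to cytochrome c, had 18 enriched peaks on 3 of 6 genes in WT of set 1, and 13 of them lay on Uqcrc1. Uqcrc1 carried 28, 30, 48 and 46 listed peaks in WT and mir-486 KO of set 1 and then of set 2, of which 13, 0, 0 and 1 were enriched. Its highest site (chr9:108944745-108944889, +, CDS) read 5.09, 1.53, 2.16 and 2.50 in that order. The single enriched peak in mir-486 KO of set 2 was a 3-nt intronic one at 3.91, whose overlapping peaks read 3.89, 2.67 and 2.78 in WT of set 1, mir-486 KO of set 1 and WT of set 2. Uqcrc2, the other core protein, had 4 enriched peaks in WT of set 1 and Uqcrh, the hinge protein, had 1. Uqcrfs1, the Rieske iron-sulfur protein, Cyc1, the cytochrome c1 subunit, and Uqcrb had none in any library. Cycs, cytochrome c itself, was thinly covered, with 1, 2, 4 and 4 peaks, and was the only 1 of the 51 genes below 0 in WT of set 1 (-1.13). Its CDS peaks in set 2 reached 2.80 in WT and 2.82 in mir-486 KO.

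Complex IV, cytochrome c oxidase, had 12 enriched peaks on 5 of 10 genes in WT of set 1 and 0 among 50, 98 and 93 peaks elsewhere. Cox5a carried the most, 4 of 8, with a median of 3.07 in WT of set 1 and of 0.61, 1.34 and 1.21 in mir-486 KO of set 1, WT of set 2 and mir-486 KO of set 2. Cox6c had medians of 2.81, 0.25, 1.33 and 1.47 in the same libraries. The muscle isoforms Cox6a2, Cox7a1 and Cox8b had 2, 0 and 3 enriched peaks in WT of set 1. The highest site of Cox6a2 (chr7:128206232-128206326, -, CDS) read 5.05 in WT of set 1 and 0.34, 0.68 and 1.01 in mir-486 KO of set 1, WT of set 2 and mir-486 KO of set 2. At the same peak the direct fold of WT over mir-486 KO in set 1 was 0.90. Cox8b had a median of 3.62 in WT of set 1 against 0.41, 0.22 and 0.63, and Cox7a1 of 2.12 against -0.04, 0.28 and 0.47. By their gene medians, Cox8b and Cox7a1 were therefore higher over input in WT of set 1 than in each of the other libraries. The Cox6a2 site was chosen as the highest of its gene, so its place in WT of set 1 is no support. Of the isoforms Cox6a1, Cox7a2 and Cox8a, listed apart, Cox7a2 (1.93 against -0.57, 0.24 and -0.57) and Cox8a (3.77 against 2.16, 2.87 and 2.66) gave the same order. Cox6a1 did not (1.50 against 1.71, 0.97 and 1.40).

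Complex V, the ATP synthase, had the most enriched peaks by count, 25 on 9 of 13 genes in WT of set 1. As a share of listed peaks that was 21.6%, beside 11.2% for complex I, 11 of 55 peaks for complex II, 25.4% for complex III and 24.5% for complex IV. Complex V was the only complex with enriched peaks in WT of set 2 (5 on 2 genes). In mir-486 KO of set 2 it had 9 on 3 genes, and in mir-486 KO of set 1 it had 0 of 135. Atp5a1, the alpha subunit of the catalytic head and a target named by the study, carried 21, 30, 46 and 51 listed peaks in WT and mir-486 KO of set 1 and then of set 2, of which 7, 0, 2 and 4 were enriched. Atp5a1 was the only 1 of the 51 genes enriched in both WT libraries. Its recurrent site in CDS (chr18:77780235-77780255, +) read 4.57 in WT of set 1, 2.59 in mir-486 KO of set 1, 3.23 in WT of set 2 and 3.51 in mir-486 KO of set 2. The site was thus past the threshold in 3 libraries, mir-486 KO of set 2 among them, and in set 2 it was not higher in WT. The median over all peaks of Atp5a1 was 2.56, 0.52, 0.03 and 0.36.

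Atp5b, the catalytic beta subunit, carried the highest site of all 51 genes (chr10:128089089-128089157, +, CDS), at 5.13 in WT of set 1, 2.01 in mir-486 KO of set 1, 2.59 in WT of set 2 and 2.92 in mir-486 KO of set 2. Shorter pieces over that site reached 3.04 and 3.01 in mir-486 KO of set 2. Atp5h, of the peripheral stalk, went the other way from the rest: it had 0 enriched peaks in both libraries of set 1 and 3 in each library of set 2. Its CDS site at chr11:115415716-115415882 (-) read 3.02 in WT of set 2, and the peaks over it read 3.15 and 3.36 in mir-486 KO of set 2, 2.98 in WT of set 1 and 2.55 in mir-486 KO of set 1. The 4 libraries lay within 1 log2 unit at that site. Atp5g3 had 6 enriched peaks and Atp5l, a subunit of the membrane part, had 2 of 3, both in WT of set 1 alone. Atp5l had the highest gene median of any library (4.59).

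Most enriched sites of WT of set 1 were listed in every library but at lower values. Of its 84 enriched peaks, 83 overlapped a peak in mir-486 KO of set 1, 82 in WT of set 2 and 82 in mir-486 KO of set 2. Their median there was 1.01, 1.10 and 1.20, against 3.69 in WT of set 1, where they were chosen. These values are those of the 1 peak with the longest overlap, and 72, 76 and 78 of them were above 0. Counting any overlap, 0, 3 and 6 of the 84 peaks met an enriched peak in mir-486 KO of set 1, WT of set 2 and mir-486 KO of set 2. The same count was not made for all enriched peaks of WT of set 1. The low recurrence therefore cannot be read as particular to these genes. The direct folds of WT over mir-486 KO at the 84 peaks had a median of 1.18 and ranged from 0.22 to 2.27. Of the 11 peaks enriched in mir-486 KO of set 2, 7 overlapped one enriched in WT of set 1 and 6 one enriched in WT of set 2. These 11 had a median of 3.46 where chosen, and their overlapping peaks read 4.52 in WT of set 1, 2.55 in mir-486 KO of set 1 and 3.02 in WT of set 2. Choosing a peak for its value in 1 library favours lower values in the others, without fixing them.

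**Figure D2:**
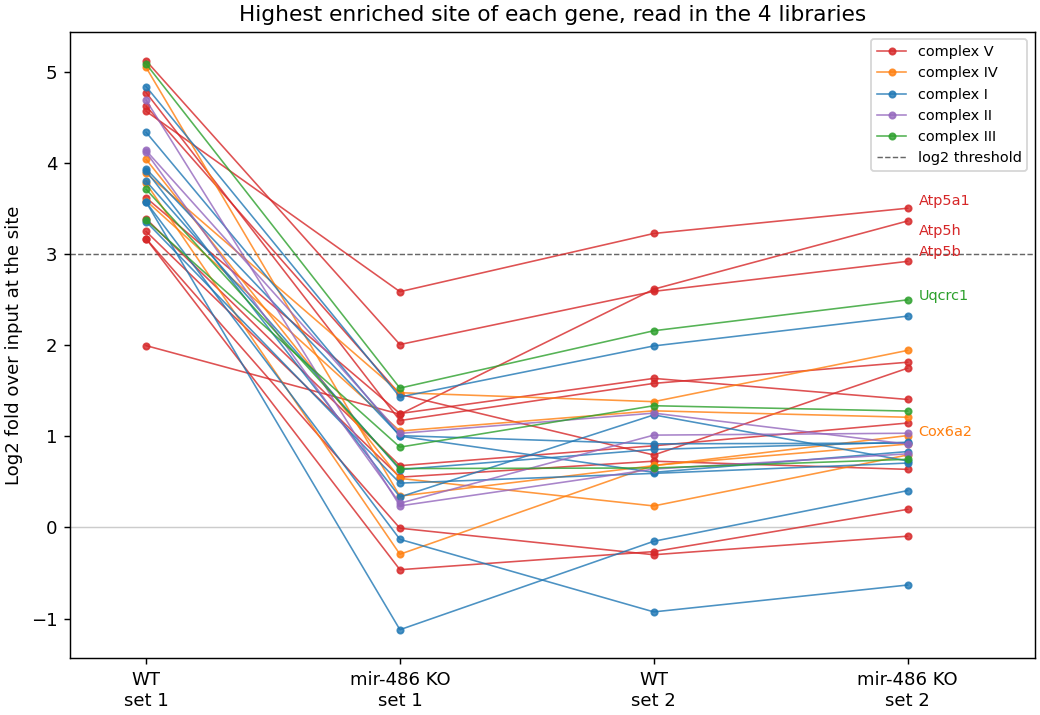
Log2 fold over input (y axis) at the highest enriched site of each of the 29 genes with one, read in the 4 libraries (x axis), with 1 line per gene coloured by complex and the log2 threshold dashed. The median site fell from 3.89 in WT of set 1 to 0.68, 0.90 and 0.94 in the other libraries, and the ATP synthase genes Atp5a1, Atp5h and Atp5b are the highest 3 in mir-486 KO of set 2.

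Peaks on these genes lay mainly in CDS, in all libraries. The CDS share was 84.1% and 77.7% in WT and mir-486 KO of set 1 and 82.8% and 82.0% in set 2, while of all listed peaks 51.8%, 35.5%, 40.2% and 39.7% lay in CDS. The mean over sets was 83.4% ± 0.883 (SD, n = 2) in WT and 79.8% ± 3.07 (SD, n = 2) in mir-486 KO, so the genotypes differed by about the spread between sets. The 3′ UTR share was between 5.97% and 8.61%, beside 11.4% to 19.3% of all peaks. Introns held 1.99% to 6.75%, beside 21.4% to 43.1%. The 5′ UTR share, 4.54% to 7.52%, was above that of all peaks (2.85% to 4.21%) in each library. The region was read at the middle of a peak, and the share falls to 60.4% (WT, mean of both sets) if it is read at the 5′ end.

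Of the 84 enriched peaks in WT of set 1, 72 lay in CDS and 11 in the 5′ UTR, and none lay in a 3′ UTR. With 27 peaks listed in 3′ UTRs, a count of 0 allows up to 11.1%, beside 5.89% of all 3′ UTR peaks of that library. Of all its 3297 enriched peaks, 1518 lay in CDS, 1051 in a 3′ UTR and 148 in a 5′ UTR. The 5′ UTR peaks included the highest sites of Cox8b (4.04), Cox7b (3.89), Cox6c (3.78), Uqcrh (3.38) and Atp5l (4.63). Along the CDS, the listed peaks of these genes in WT of set 1 were spread with 25.8% in the first of 5 equal parts and 17.4% in the last. The enriched ones held 20 of 72 in the first part and 6 in the last. Over all genes the listed CDS peaks held 21.1% in the first part and 19.6% in the last, and the enriched ones 22.5% and 18.6%. In mir-486 KO of set 2 the 9 enriched CDS peaks, all on Atp5a1, Atp5b and Atp5h, lay in the last 2 of the 5 parts. These few peaks are pieces of a handful of sites.

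**Figure D3:**
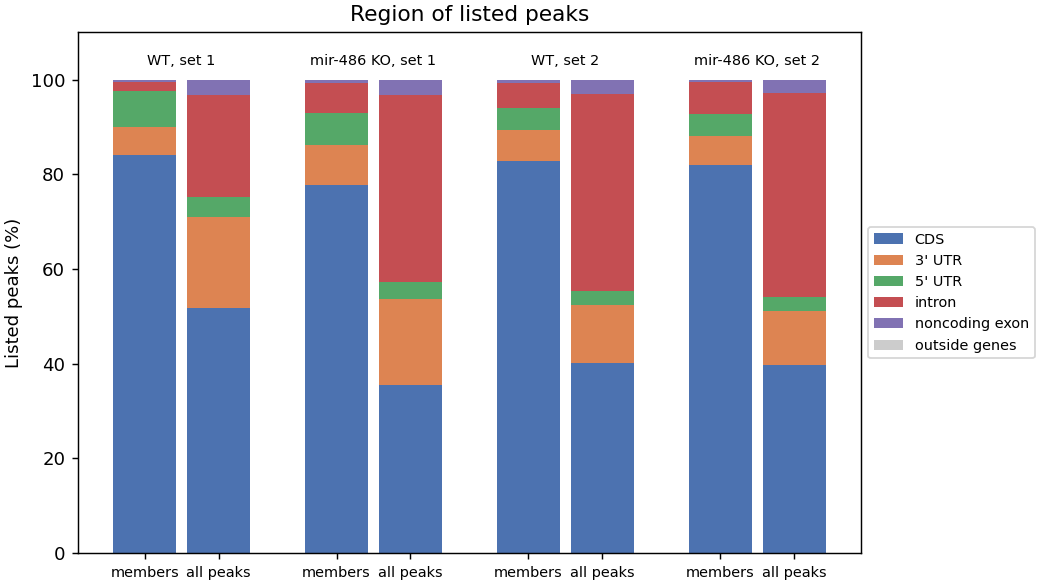
Share of listed peaks (y axis, %) by the region at their middle, for the oxidative phosphorylation genes (members) and for all peaks in each of the 4 libraries. CDS makes up 77.7% to 84.1% of the peaks on these genes and 35.5% to 51.8% of all peaks.

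The question of the direct lists is whether AGO2 held more of these mRNAs with miR-486 than without it. At the WT peaks the median log2 fold of WT over mir-486 KO was 0.79 in set 1 and -0.08 in set 2, a mean of 0.36 ± 0.61 (SD, n = 2). In set 1, 49 of 51 genes lay above 0, beside 92.5% of all genes, and the median of all genes was 0.90. In set 2, 21 of 51 genes lay above 0, beside 79.8% of all genes, and the median of all genes was 0.36. The medians of all genes were above 0 in both directions. Each list holds the peaks called in its own numerator, and the part of that choice was not tested. The level also differed by region: in mir-486 KO over WT of set 1, all CDS peaks had a median of -0.16 and all intron peaks 1.43. Set beside CDS peaks only, those of these genes had a median of 0.83 in set 1 (all CDS peaks 0.82) and -0.15 in set 2 (all CDS peaks 0.05). At the mir-486 KO peaks the fold of mir-486 KO over WT was -0.63 in set 1 (all genes 0.58) and 0.07 in set 2 (all genes 0.23). The sign of the difference was thus not the same in the 2 sets. At the WT peaks these genes lay below the median of all genes in both, and at the mir-486 KO peaks of set 1 they lay toward WT of it.

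Past both thresholds, a log2 fold and a −log10 p of at least 3, the WT over mir-486 KO list of set 1 held 1 of 51 genes, beside 2.66% of all genes. The gene was Ndufa9, an accessory subunit of complex I, at 1 CDS peak (chr6:126832468-126832550, -) with a log2 fold of 3.43 and a −log10 p of 6.49. Over input that peak read 2.73 in WT of set 1 and had no overlapping peak in mir-486 KO of set 1. In set 2 its longer pieces read -0.42 in WT and -0.24 in mir-486 KO, so the difference did not recur. The other direct lists held 0 of these genes, beside 0.254% of all genes for WT over mir-486 KO in set 2 and 1.01% and 0.217% in the reverse lists of sets 1 and 2. With a log2 threshold of 1 and the same p threshold there were 33 of 51 genes for WT in set 1, beside 16.9% of all genes, and 0 in set 2, beside 2.66%. For mir-486 KO there were 0 in set 1, beside 3.21%, and 1 in set 2 (Ndufv1, a flavoprotein subunit of complex I), beside 1.27%.

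In set 1 the median direct fold of WT over mir-486 KO was 0.79 for complex I (16 of 17 genes above 0), 0.96 for complex II (4 of 4), 0.88 for complex III (6 of 6), 0.50 for complex IV (9 of 10) and 0.87 for complex V (13 of 13). In set 2 it was -0.18 (6 of 17), -0.18 (1 of 4), -0.12 (2 of 6), 0.07 (6 of 10) and -0.06 (5 of 13). Complex IV had the lowest median in set 1 and the highest in set 2. With Ndufa4 counted in complex IV, the medians of sets 1 and 2 were 0.81 and -0.18 for complex I and 0.46 and 0.06 for complex IV. The ranges of the 5 complexes overlapped in both sets, and no complex lay wholly apart from another.

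The order of the genes by direct fold did not recur between the sets. The Spearman correlation between set 1 and set 2 was -0.067 (n = 51), and -0.074 for the 43 genes with at least 5 peaks in both. By the mean of both sets, the genes highest in WT were Atp5g2 (2.43), Ndufs6 (0.84), Sdhc (0.77), Atp5f1 (0.75) and Ndufa9 (0.65). Atp5g2, which encodes the c subunit, rested on 1 intronic peak in each WT library (2.74 in set 1 and 2.12 in set 2), at different places, and had none in mir-486 KO of set 2. Ndufs6, a subunit of the peripheral arm, read 1.54 in set 1 and 0.15 in set 2, Sdhc read 1.44 and 0.09, and Atp5f1, of the peripheral stalk, 1.50 and 0.00. Each of these owed its rank to set 1. The lowest were Cox7c (-0.08), Ndufa10 (0.03), Ndufa5 (0.06), Ndufb9 (0.10) and, level at 0.13, Cox7a1 and Cox6b1. Cox7c rested on 1 peak in each WT library, at -0.68 in set 1 and 0.51 in set 2, and Ndufa5 read -0.16 and 0.28. These were the 2 genes below 0 in set 1. Atp5a1 read 0.59 in set 1 and -0.26 in set 2.

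**Figure D4:**
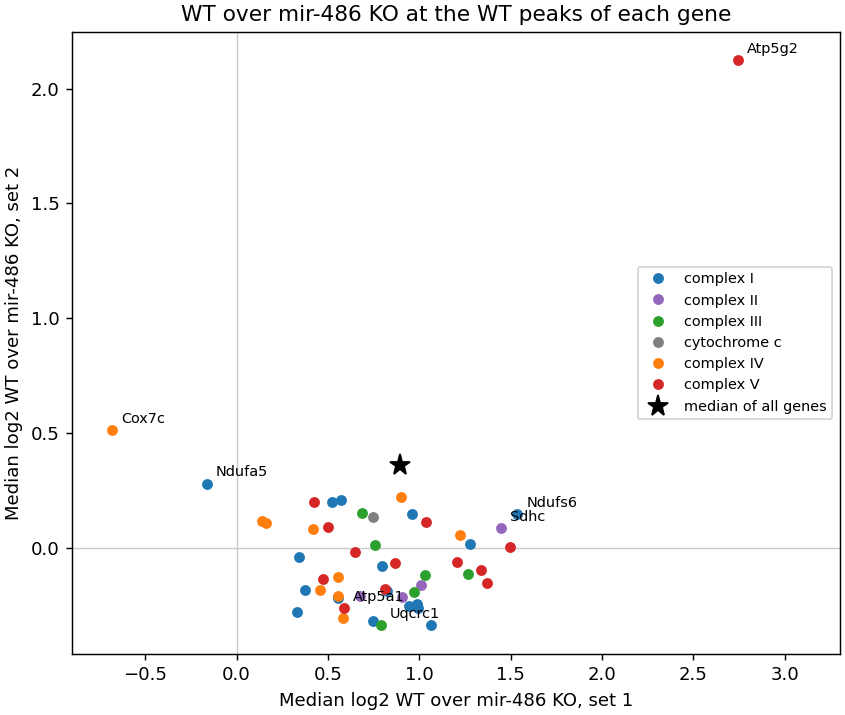
Median direct log2 fold of WT over mir-486 KO at each gene's WT peaks, set 1 (x axis) against set 2 (y axis), 1 point per gene coloured by complex, with the star at the medians of all genes (0.90 and 0.36). Of the 51 genes 49 lie right of 0, 21 lie above 0, and Atp5g2, with 1 intronic peak per set, stands apart.

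The 3 genes for the same c subunit of the ATP synthase ring differed in cover and level. Atp5g1 had 9, 5, 6 and 8 listed peaks in WT and mir-486 KO of set 1 and then of set 2, with medians of 0.87, -0.35, 0.02 and -0.10. Atp5g2 had 1, 2, 1 and 0. Atp5g3 had 10, 12, 19 and 16, with medians of 3.36, 0.34, 0.77 and 0.89, and was above Atp5g1 in each library. All 6 enriched peaks among the 3 genes lay on Atp5g3. The mature protein is shared by the 3 genes, and several genes named here have processed copies elsewhere in the genome. How reads with more than 1 place were shared out is not given in the sources used here.

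Seeds of microRNAs known in muscle were looked for in the peaks extended by 25 nt on each side. Mature sequences were taken from RefSeq (GRCm38.p6), and those of the microRNAs whose seed words fell under or within 25 nt of enriched peaks of these genes follow, with the seed in capitals.
let-7a-5p: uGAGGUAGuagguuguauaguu
miR-29a-3p: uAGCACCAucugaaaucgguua
miR-24-3p: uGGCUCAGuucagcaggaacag
miR-206-3p: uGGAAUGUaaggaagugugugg
miR-378c: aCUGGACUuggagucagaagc
miR-499-5p: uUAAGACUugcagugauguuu
miR-22-3p: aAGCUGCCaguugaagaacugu
miR-26a-5p: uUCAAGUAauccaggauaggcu
The word searched in each case was the reverse complement of the seed, CTACCTC for let-7a-5p, TGGTGCT for miR-29a-3p and CTGAGCC for miR-24-3p. The peaks were read on the transcript strand alone.

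The share of CDS peaks with a word of any of the 13 microRNAs was lower on these genes than over all CDS peaks, with no test of the difference. In set 1 it was 10.8% of 380 peaks in WT and 10.3% of 379 in mir-486 KO, beside 18.5% and 15.9% of all CDS peaks. The median CDS peak was 70.5 and 76 nt long on these genes and 70 and 66 nt over all. In set 2 the shares were 7.41% and 7.93%, beside 15.3% and 15.5%, with shorter peaks on these genes (35 and 37 nt against 70 and 72 nt). In 3′ UTRs, with 27 to 54 peaks on these genes, they were 9.52% to 14.8%, beside 21.3% to 28.8%. Of the 72 enriched CDS peaks of WT of set 1, 18.1% held a word, beside 35.6% of the 1518 enriched CDS peaks at large. A match is a run of letters and does not show that a microRNA was bound there.

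Counted once each, the peaks of these genes held 71 matches on 36 genes, 37 of them in CDS, and 35 of those 37 lay under or near a peak in all 4 libraries. The miR-29a-3p word was the most frequent in CDS, with 10 matches on 10 genes, followed by that of miR-24-3p with 7 on 7. The CDS share with the miR-29a-3p word was 2.89% in WT of set 1, beside 2.67% of all CDS peaks, and that with the miR-24-3p word 1.84%, beside 1.86%. For let-7a-5p it was 1.05%, beside 2.29%, for miR-206-3p 0.789%, beside 1.95%, and for miR-133b-3p 0 of 380, which allows up to 0.789%, beside 2.17%. The words of these genes were thus near the background for miR-29a-3p and miR-24-3p and fewer for the others just named. Matches under or within 25 nt of enriched CDS peaks of WT of set 1, with 30-nt windows and the word in capitals, include the following.
Uqcrc1, let-7a-5p, chr9:108945375-108945404 (+): agacttgactgaCTACCTCaacagacatta
Uqcrc1, miR-29a-3p, chr9:108945407-108945436 (+): aagccccccggaTGGTGCTggctgcagctg
Uqcrc2, miR-24-3p, chr7:120651331-120651360 (+): accaccagcctcCTGAGCCagagtgttgcc
Cox6a2, miR-24-3p, chr7:128206256-128206285 (-): ctctaaaggtcCTGAGCCggagcatggcca
Cox5a, miR-24-3p, chr9:57530262-57530291 (+): atgatctggttcCTGAGCCcaaaatcattg
Ndufv2, miR-29a-3p, chr17:66091870-66091899 (-): gcagtgcacaaTGGTGCTggaggagcctta
Ndufs1, miR-378c, chr1:63152849-63152878 (-): ccctcatcggtAGTCCAGtggacctcactt
Atp5g3, miR-29a-3p, chr2:73909216-73909245 (-): gttgctggttcTGGTGCTggtattggaaca
Atp5c1, miR-29a-3p, chr2:10064208-10064237 (-): agagggctttgTGGTGCTattcactcctca
The windows shown come from genes of every complex but complex II. In complex II, a miR-26a-5p word in an intron of Sdha (chr13:74332076-74332082, -) lay within 25 nt of an enriched CDS peak (4.14 in WT of set 1). Peaks at the Uqcrc1 miR-29a-3p match reached 4.55 in WT of set 1 and 1.96, 2.13 and 2.46 in mir-486 KO of set 1, WT of set 2 and mir-486 KO of set 2. Those at the Atp5c1 match reached 3.25, 0.55, 0.73 and 0.64, and those at the Ndufv2 match 3.57, -1.12, -0.15 and 0.41.

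The word of miR-206-3p, a microRNA of skeletal muscle, lay just past the end of the recurrent Atp5a1 site (chr18:77780266-77780272, +), under the neighbouring enriched peak. Peaks at or within 25 nt of the word reached 4.57 in WT of set 1, 2.59 in mir-486 KO of set 1, 3.27 in WT of set 2 and 3.62 in mir-486 KO of set 2. It was the 1 CDS match to that word on these genes. The same word belongs to any microRNA with this seed, miR-1a-3p among them.

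Other genes of the pathway were listed apart. A list of 38 further genes, called subunits below, also held isoforms of complex IV and the ATP synthase inhibitor Atpif1. Of the 38, 37 were in the annotation, and 32, 31, 35 and 35 had a peak in WT and mir-486 KO of set 1 and then of set 2. Of these 12, 2, 5 and 5 carried an enriched peak, beside the 15.3%, 4.52%, 13.2% and 12.4% of all genes given above. Their median over input was 1.52, -0.46, -0.01 and 0.15. Usmg5, a small subunit of the ATP synthase, had 5, 0, 0 and 3 enriched peaks. Of 41 assembly factors, 39, 39, 41 and 41 had a peak and 5, 1, 5 and 3 an enriched one, with medians of 0.83, 0.38, 0.34 and 0.04. Among them Coa5 had 1, 2, 6 and 6 enriched peaks. All 11 transcriptional regulators of the pathway had a peak in each library, and 1, 1, 4 and 2 had an enriched one, with medians of 0.78, 0.30, 0.47 and 0.46. In WT of set 1 that was 5 of 39 assembly factors and 1 of 11 regulators, beside 15.3% of all genes. Counts this small cannot be told apart from that share. Among the regulators Ppargc1b, a coactivator of mitochondrial gene expression, had 7, 4, 6 and 4 enriched peaks. In the direct lists past both thresholds, the subunits held 0 genes in every list, the assembly factors 1 toward each genotype in set 1, and the regulators 1 toward WT in set 2.

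By their median fold over input, skeletal muscle markers were also higher in WT of set 1 than in the other libraries. The 5 fast fibre genes had 82 enriched peaks of 362 in WT of set 1, and 0 of 383, 4 of 672 and 6 of 634 in mir-486 KO of set 1, WT of set 2 and mir-486 KO of set 2. The gene medians of the 10 skeletal muscle markers ranged from 0.04 to 2.90 in WT of set 1, from -1.44 to -0.22 in mir-486 KO of set 1, from -1.17 to 0.92 in WT of set 2 and from -1.08 to 0.68 in mir-486 KO of set 2. All 10 were above 0 in the first, and 0, 2 and 2 were in the others. Of their peaks, 13 of 413, 3 of 510, 2 of 709 and 1 of 760 were enriched in that order. Of all listed peaks it was 3297 of 92451, 1016 of 119859, 3479 of 244814 and 3148 of 256219. The share of the skeletal muscle markers was thus below that of all peaks in each library. The fast fibre share was above it in WT of set 1 alone. The slow fibre genes had 20 enriched peaks of 106 (18.9%) in WT of set 1. They had 0 of 90, 0 of 15 and 0 of 16 in mir-486 KO of set 1, WT of set 2 and mir-486 KO of set 2. These counts of 0 allow up to 3.33%, 20% and 18.8%, so those of set 2 do not show a lower share. The part of fibre type, of mRNA abundance and of the input libraries in the values above was not tested, and in whole muscle a change in RNA per cell and in the share of a cell type cannot be told apart.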

How the data were processed

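Per the study's methods, the authors trimmed reads with cutadapt, aligned them with STAR to GRCm38 (mm10), called peaks with CLIPper in each immunoprecipitated library, compared the reads of a peak between 2 libraries and merged peaks that overlapped. The labels also name UMI-tools, FastQC and SAMtools. For each peak the authors deposited a log2 fold between the 2 libraries and the −log10 of its p-value, written up to 400. Of the 8 lists, 4 set a library over its input and 4 were direct, WT over mir-486 KO at WT peaks and the reverse at mir-486 KO peaks.

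Here peaks were matched to GENCODE M21, an earlier release than the M24 the labels name, with Python 3.11.15 and pandas 2.3.3. Coordinates are 1-based, and all 21 chromosomes fitted the reference genome. The region was read at a peak's middle, CDS first. Of 2 genes with the symbol Atp5o, the readthrough transcript was left out. Both log2 and −log10 p thresholds were 3, and an interval is 95% Wilson. The genes and lists were chosen with earlier results of these data known. Genes named are Atp5a1, the gene with most enriched peaks in each complex, genes enriched in both WT libraries or past the thresholds of a direct list, the 5 highest and 5 lowest by direct fold, and 2 isoform sets; others were chosen after their values were seen. Of 17 microRNAs, 13 had a mature sequence, 3 of them added later (miR-206-3p, miR-133b-3p, miR-378c). No word was derived from miR-486a-5p, miR-1a-3p, miR-133a-3p and miR-378a-3p, which had no mature sequence. By family, miR-1a-3p, miR-133a-3p and miR-378a-3p share the seeds of the 3 added, so their words were searched under those names. The word of miR-486a-5p was not searched. The overlap and region steps were tested on simulated data. No read counts were given, so depth is unknown and no test between genotypes was made.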

Additional observations from a re-analysis of the deposited data

How the results depend on the processing

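The 2 sets decided most values, and the spread over them is that of 2 libraries. Left to 1 set, the number of genes enriched lay between 2 and 28 for WT (mean 15) and between 0 and 5 for mir-486 KO (mean 2.5), and that past the direct thresholds between 0 and 1 for WT over mir-486 KO (mean 0.5). The median fold over input of mir-486 KO lay between -0.10 and 0.23, and the direct fold of WT over mir-486 KO between -0.077 and 0.79, below 0 without set 1. So did that of complex I (-0.18 to 0.79), complex II (-0.18 to 0.96), complex III (-0.12 to 0.88) and complex V (-0.059 to 0.87). Taken relative to the median of all peaks of the same region, the mean direct fold was -0.10 in place of 0.36. The following are means over both sets. With log2 thresholds of 1 and 4 the enriched genes numbered 32.5 and 6 in WT and 19 and 0 in mir-486 KO. With a threshold of 1 the direct lists held 16.5 for WT and 0.5 for mir-486 KO. By its highest peak, the median gene was at 2.14 over input in WT and 1.15 in mir-486 KO. The CDS share was 60.4% in WT and 59.3% in mir-486 KO if read at the first base of a peak, and 70.0% and 67.2% if a 3′ UTR took precedence. Seed words were in 6.32% and 6.26% of CDS peaks without extension and in 14.0% and 14.6% with 50 nt, in place of 9.10% and 9.11%. The cause of these changes was not tested beyond what each setting changes by construction. Another 36 alternatives moved their result by less than the SD between the sets or left its count near. Leaving out 1 set does so for a mean of 2 values by construction, unless the sign turns. Such settings are among the 36, as for the WT median over input (0.93 on both sets, 1.64 and 0.21 on 1). The number is therefore no measure of stability. Counting the readthrough gene, a choice made after seeing the data, raised the peaks of Atp5o from 10 to 12 in WT of set 1 and from 15 to 27 in WT of set 2. Restriction to the 38 genes with at least 5 peaks in every library, also chosen later, gave a direct fold of 0.35. Each set pairs 1 WT with 1 mir-486 KO library, and no paired test was made because there are only 2 such pairs. The direct folds are differences within a set and are given for each set. Depth limits low peaks most, and without read counts it cannot be stated.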
